A study of Homo sapiens with 8 samples.

Results

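The comparison described here sets 5 stable DAOY lines that carry an MXD3 transgene against 3 control arrays, over all 12162 genes detected on the arrays. DAOY is an established human medulloblastoma cell line. MXD3 lines 1 to 5 carry the plasmid pHM6-MXD3, vector lines 1 and 2 carry pHM6 without an insert, and the remaining control is the untransfected parental DAOY culture. The controls were pooled into 1 group, as the design compares the MXD3 lines with both kinds of control. Each of the 8 samples of the series was read on 1 Illumina bead array, so all 8 of 8 arrays enter the comparison. Transfected lines grew under G418 at 800 µg/ml, and no selection is named for the parental cells. The labels do not say whether a numbered line is a single clone, nor which promoter drives the transgene, and the p-values below measure the spread between these samples.

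MXD3 belongs to the MXD family of basic helix-loop-helix leucine zipper proteins. MXD proteins pair with MAX, bind the E-box CACGTG in promoters and recruit SIN3 and histone deacetylases, while MYC with MAX binds the same motif and activates transcription. Genes of ribosome assembly and protein synthesis are among the best known targets of MYC. In the mouse cerebellum, Mxd3 is expressed in the dividing granule neuron precursors from which one kind of medulloblastoma arises.

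The E-box sequences below are shown because the genes with lower means in the MXD3 lines held this motif more often than the genes with higher means (counts further on). Each line gives 30 bases around the CACGTG, 5′ to 3′ on the strand of the gene, with the E-box in capitals, from the RefSeq promoters of build GRCh38.p14. The first 5 belong to ribosome assembly genes of the nucleolar class described below and the next 5 to genes outside that class. All 10 had lower means in the MXD3 lines, and the last 2 belong to genes with higher means. The 5 outside the class do not strictly follow the order of p. SMAD1 and MDN1, with smaller p than TMA16, are not shown, and their first E-boxes start at bases -25 and -155 from the gene start.
UTP4: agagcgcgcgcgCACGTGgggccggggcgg
MRTO4: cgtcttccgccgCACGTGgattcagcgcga
NOP14: tccgcggcccggCACGTGtcttagggtagc
PES1: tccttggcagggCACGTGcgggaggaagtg
NOL6: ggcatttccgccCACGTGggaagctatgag
GNAT2: cttcctgggcgcCACGTGggcagccaccac
PNMA3: ggcgcactggccCACGTGctgcgcgagcga
ZNF296: gggcccggccagCACGTGtaagagttcgcg
DPH2: ccccggtagtccCACGTGtagcggagaaac
TMA16: cttctcaggcgcCACGTGggattcggcccg
STARD10: tgccagaacctgCACGTGgggcttggtgac
SNAP29: cggctttcccgcCACGTGacctctcagttg
The stretch shown for UTP4 is chr16:69132621-69132650 on the plus strand, and its E-box starts 16 bases before the gene start. The E-boxes of MRTO4 (chr1:19251807-19251836 on the plus strand), NOP14 (chr4:2963374-2963403 on the minus strand), PES1 (chr22:30591880-30591909 on the minus strand) and NOL6 (chr9:33473894-33473923 on the minus strand) start at bases 14 to 16, counted from 1 at the gene start. Among the other lower genes, those of PNMA3 (chrX:153056467-153056496 on the plus strand) and TMA16 (chr4:163494684-163494713 on the plus strand) also lie after the start. Those of ZNF296 (chr19:45076491-45076520 on the minus strand), DPH2 (chr1:43969980-43970009 on the plus strand) and GNAT2 (chr1:109619748-109619777 on the minus strand) lie before it. The site of STARD10 (chr11:72794002-72794031 on the minus strand) lies after the gene start and that of SNAP29 (chr22:20858811-20858840 on the plus strand) before it, so the motif was not confined to lower genes. The 250 bases before the start of UTP4 (chr16:69132399-69132648 on the plus strand) hold this 1 E-box, at their end.
UTP4 upstream: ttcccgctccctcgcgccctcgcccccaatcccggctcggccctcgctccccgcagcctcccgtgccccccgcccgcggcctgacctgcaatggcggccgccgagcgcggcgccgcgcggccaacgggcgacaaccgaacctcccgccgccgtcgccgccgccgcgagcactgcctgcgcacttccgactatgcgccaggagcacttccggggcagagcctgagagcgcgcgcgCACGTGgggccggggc

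Of the 22184 probes, 60.5% to 64.0% were detected on an array at a p under 0.05, and mean intensities lay between 1346 and 1797. Levels are given as normalised log2 intensities, and differences as the mean of the 5 MXD3 lines minus the mean of the 3 controls, in log2 units. Fewer cells of a type and less RNA per cell cannot be told apart in such bulk samples. The parental array stood apart in 1 abundant transcript: RNA28SN5, a 28S ribosomal RNA gene, measured 14.68, 14.91, 14.46, 14.87 and 14.50 in MXD3 lines 1 to 5, against 14.63 and 14.59 with empty vector and 11.40 in parental DAOY. Values against the vector lines alone are therefore given beside some of the main results. The labelled tumour type was only partly borne out by its markers. Of 20 markers of medulloblastoma and neural precursors on the array, 14 were detected, among them VIM, SFRP1, ZIC2, OTX2, PAX6 and SOX2. GLI1, ATOH1, ZIC1, BARHL1, NES and SYP were detected on none of the 8 arrays.

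The transgene was not clearly visible in the level of MXD3, which was read by 1 probe. The labels do not say whether this probe lies within the transgene, so its RNA may go unread. MXD3 measured 7.47, 7.22, 6.98, 8.08 and 6.18 in MXD3 lines 1 to 5, against 6.93 and 6.71 with empty vector and 6.59 in parental DAOY. Lines 1 to 4 lay above the 3 controls and line 5 below them. The difference of 0.44 gave p = 0.321 in a two-sided exact permutation test, whose smallest possible p is 0.0357. It was 0.22 without line 4 and 0.70 without line 5.

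No gene passed the test over all genes. The smallest adjusted p was 0.247 (limma with Benjamini-Hochberg adjustment), so 0 of 12162 genes were called (0%). At an unadjusted p under 0.05, 1424 genes differed (11.7%), of which 746 had higher means in the MXD3 lines (6.13%) and 678 lower means (5.57%). Below, "higher genes" and "lower genes" are these 2 sets. Set against vector lines only, 942 genes did so (7.75%). For 970 genes (7.98%) the 5 MXD3 lines did not overlap with the 3 controls: 467 lay above (3.84%) and 503 below (4.14%). With the authors' own scaled values the split of such genes was 589 above and 404 below. Both criteria held for 734 genes, 364 higher and 370 lower.

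Large differences were uncommon. The median absolute difference was 0.171 over all genes and 0.532 over the 1424 genes. An absolute difference of at least 1, which is 2-fold, was seen for 103 of them, 41 higher and 62 lower. When each array was left out in turn, 447 genes kept an unadjusted p under 0.05 every time, 209 higher and 238 lower. The differences were not tied to 1 range of expression: from the lowest to the highest quartile of mean intensity, 5.82%, 7.6%, 6.41% and 4.7% of genes were higher, and 5.82%, 6.55%, 5.07% and 4.87% lower. MXD3 line 1 was the line closest to the controls in 158 of the 364 higher genes and in 162 of the 370 lower genes, more often than any other line. Among the controls, vector line 1 was closest to the MXD3 lines, in 178 of the higher and 197 of the lower genes.

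The genes described next are the 25 in each direction with the smallest p among those without overlap. All 50 had an adjusted p between 0.247 and 0.283 in limma's test, and all had an unadjusted p under 0.05 against the vector lines alone and without each array in turn. As the genes were picked for a small p on these same arrays, these checks are no independent support. The 25 higher genes differed by 0.65 to 1.72 and 22 of them were detected on all 8 arrays. The 25 lower genes differed by 0.65 to 2.01 in size and 16 were detected on all 8 arrays. MXD3 line 1 was closest to the controls in 17 of the 25 higher genes and 16 of the 25 lower genes.

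**Figure D1:**
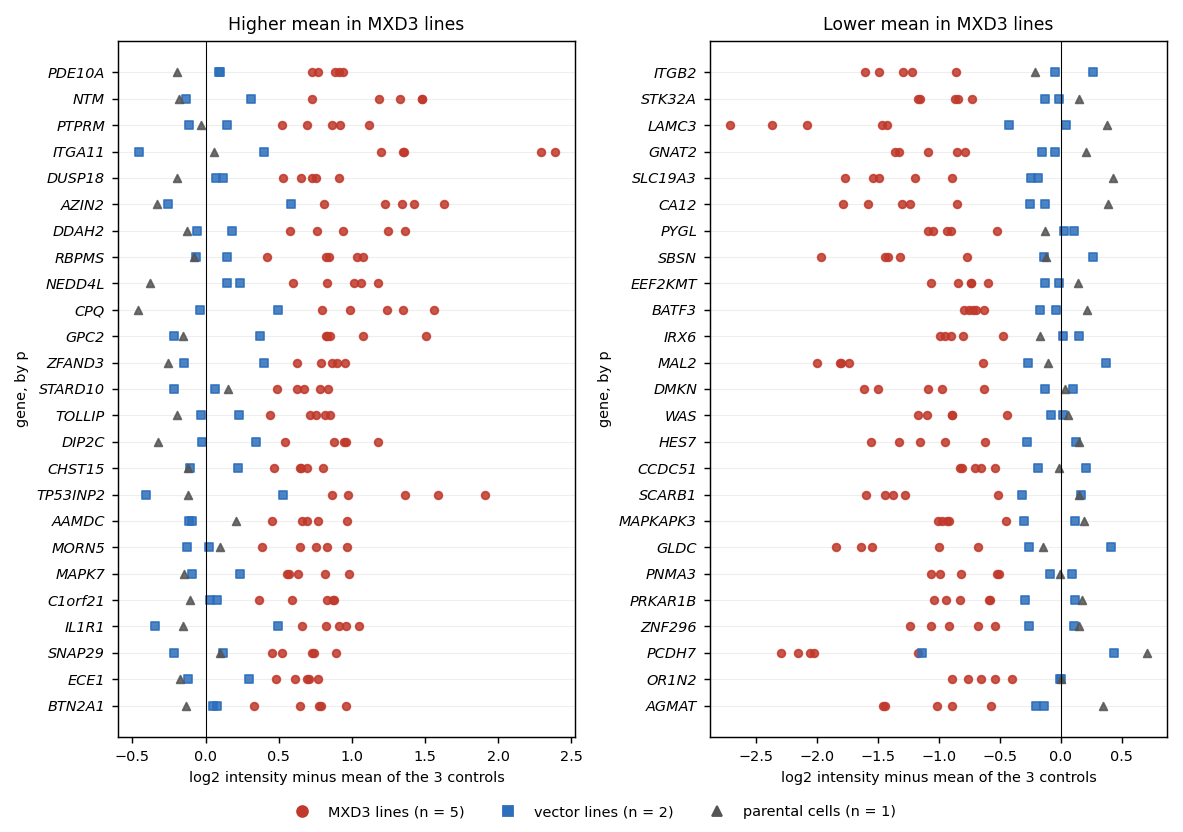
Log2 intensity minus the mean of the 3 controls (x axis) for the 25 higher genes (left) and 25 lower genes (right) with the smallest p among genes without overlap, 1 row a gene. Red circles are the 5 MXD3 lines, blue squares the 2 vector lines and grey triangles the parental cells. In every row all red circles lie on one side of all control marks, and LAMC3 and PCDH7 on the right and ITGA11 on the left spread most.

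The higher genes included enzymes and several cell surface and adhesion proteins. PDE10A, a phosphodiesterase that hydrolyses cAMP and cGMP, had the smallest p of the higher genes. It measured 6.83, 6.99, 6.87, 7.04 and 7.01 in MXD3 lines 1 to 5, against 6.20 and 6.19 with empty vector and 5.90 in parental DAOY. The MXD3 lines lay within a narrow band above all controls, and PDE10A differed by 0.85 ± 0.13 (SE), with 0.75 against the vector lines alone (adjusted p = 0.247, limma).

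NTM, the neural adhesion protein neurotrimin of the IgLON family, measured 10.62, 11.37, 11.08, 11.22 and 11.37 in MXD3 lines 1 to 5, against 10.20 and 9.76 with empty vector and 9.71 in parental DAOY. Line 1 was the lowest of the MXD3 lines and still above vector line 1. The difference was 1.24 ± 0.20 (SE). ITGA11, the alpha subunit of a collagen-binding integrin, measured 7.85, 7.69, 7.85, 8.88 and 8.79 in MXD3 lines 1 to 5, against 6.89 and 6.04 with empty vector and 6.56 in parental DAOY. Lines 4 and 5 stood well above the other MXD3 lines, and ITGA11 had the largest difference of the 25, at 1.72 ± 0.32 (SE).

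PTPRM, a receptor-type tyrosine phosphatase that also binds itself between cells, differed by 0.82 ± 0.16 (SE). GPC2, a cell surface heparan sulphate proteoglycan of the glypican family, differed by 1.02 ± 0.20 (SE). IL1R1, the signalling receptor for interleukin 1, differed by 0.88 ± 0.19 (SE), and was detected on 5 of 5 MXD3 arrays and 1 of 3 controls. BTN2A1, a butyrophilin, differed by 0.70 ± 0.16 (SE). For these 4 genes, 5 of 5 MXD3 lines exceeded each control.

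NEDD4L, a HECT ubiquitin ligase that acts on membrane channels, averaged 8.92 ± 0.23 (SD, n = 5) over the MXD3 lines and 7.99 ± 0.33 (SD, n = 3) over the 3 controls. The parental cells were the lowest, and the difference was 0.94 ± 0.19 (SE), with 0.75 against the vector lines alone. MAPK7, the kinase ERK5, differed by 0.71 ± 0.15 (SE), and DUSP18, a dual-specificity phosphatase, by 0.71 ± 0.14 (SE). TOLLIP, an adaptor of Toll-like and interleukin 1 receptors, differed by 0.72 ± 0.15 (SE). MAPK7, DUSP18 and TOLLIP all stayed under a 2-fold difference.

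AZIN2, an antizyme inhibitor that regulates polyamine synthesis and uptake, measured 6.78, 7.31, 7.19, 7.60 and 7.39 in MXD3 lines 1 to 5, against 6.56 and 5.71 with empty vector and 5.64 in parental DAOY. Vector line 1 lay well above the other controls and 0.22 below the nearest MXD3 line. AZIN2 differed by 1.29 ± 0.25 (SE). TP53INP2, which acts in autophagy, differed by 1.34 ± 0.28 (SE), CPQ, a secreted carboxypeptidase, by 1.19 ± 0.24 (SE), and CHST15, a sulphotransferase of chondroitin sulphate, by 0.65 ± 0.14 (SE). SNAP29, a SNARE of membrane fusion, differed by 0.67 ± 0.15 (SE), and ECE1, the endothelin-converting enzyme, by 0.65 ± 0.14 (SE).

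Outside the 25, IL1B and LIF differed more, by 3.13 ± 0.83 (SE) and 1.80 ± 0.54 (SE), but their groups overlapped. MXD3 line 1 lay below vector line 1 in both, and IL1B was detected on 1 of 3 controls. The genes given next had the largest differences outside the 25 among named higher genes without overlap, all below that of ITGA11. LRRN3, a neuronal leucine-rich repeat membrane protein, measured 10.15, 10.71, 10.82, 11.37 and 10.26 in MXD3 lines 1 to 5, against 10.07 and 9.45 with empty vector and 7.79 in parental DAOY. The difference of 1.56 ± 0.47 (SE) rests partly on the low parental value and was 0.90 against the vector lines alone. MAP3K7CL, a gene named for its similarity to the kinase MAP3K7, measured 11.76, 12.10, 12.51, 12.56 and 13.28 in MXD3 lines 1 to 5, against 10.95 and 11.47 with empty vector and 11.16 in parental DAOY. Line 5 was highest, and the difference of 1.25 ± 0.30 (SE) was 1.23 against the vector lines alone. SORBS2, an adaptor of the actin cytoskeleton, differed by 1.18 ± 0.35 (SE) with this probe, while its second detected probe gave -0.41. TP53INP1, a p53-induced stress protein, differed by 1.14 ± 0.33 (SE).

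On the lower side, ITGB2, the beta subunit of the leukocyte integrins, had the smallest p of all genes. It measured 5.39, 5.58, 5.27, 6.02 and 5.66 in MXD3 lines 1 to 5, against 7.14 and 6.83 with empty vector and 6.66 in parental DAOY. The 3 controls lay at least 0.65 above the highest MXD3 line, and ITGB2 was detected on 2 of 5 MXD3 arrays and on all 3 controls. The difference was -1.29 ± 0.19 (SE), with -1.40 against the vector lines alone (adjusted p = 0.247, limma).

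Other genes best known from blood cells were also in the lower set: WAS, an activator of actin nucleation, differed by -0.90 ± 0.17 (SE), CD247, the zeta chain of the T cell receptor complex, by -1.44 ± 0.34 (SE), and BATF3, a bZIP factor, by -0.72 ± 0.13 (SE). The blood marker list gave mixed values. Of its 6 markers on the array, of which ITGB2 is one, CD14 and ITGAM were detected on no array, PTPRC differed by -0.55 ± 0.25 (SE) with 0.37 for its second probe, CD3E by 0.43 ± 0.15 (SE) and CD68 by 0.08 ± 0.25 (SE). The summed linear intensity of the list ran from 2033 to 4327 in the MXD3 lines and from 2620 to 3455 in the controls. Its part in these results was not tested.

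LAMC3, the gamma 3 chain of laminin, had the largest difference of the 25 lower genes. It measured 7.04, 5.76, 7.00, 6.39 and 6.10 in MXD3 lines 1 to 5, against 8.51 and 8.04 with empty vector and 8.85 in parental DAOY. All MXD3 lines lay well below all controls. The difference was -2.01 ± 0.31 (SE), and -1.82 against the vector lines alone. PCDH7, a protocadherin, measured 5.03, 4.94, 5.92, 5.06 and 4.79 in MXD3 lines 1 to 5, against 7.53 and 5.95 with empty vector and 7.79 in parental DAOY. Vector line 2 nearly met MXD3 line 3, so the gap between the groups was 0.04, although the means differed by -1.94 ± 0.41 (SE). PCDH7 was detected on 1 of 5 MXD3 arrays and 3 of 3 controls, so the size of this difference is uncertain, and its second detected probe gave -0.30. PCOLCE, which enhances the processing of procollagen, measured 10.41, 8.83, 9.81, 9.81 and 8.60 in MXD3 lines 1 to 5, against 11.07 and 11.23 with empty vector and 11.08 in parental DAOY. Its controls lay close together, and the MXD3 lines spread over 1.81 units below them, with a difference of -1.64 ± 0.37 (SE).

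Markers of fibroblasts were all detected, 8 of 8. Their summed linear intensity ran from 19270 to 25427 in the MXD3 lines and from 21753 to 26439 in the controls. LUM differed by -1.40 ± 0.50 (SE) and COL3A1 by -1.60 ± 0.57 (SE), both with overlap between the groups, while COL1A1 differed by -0.14 ± 0.19 (SE). PDGFRB and THY1 of the same list had higher means in the MXD3 lines, by 0.50 ± 0.29 (SE) and 0.42 ± 0.19 (SE), neither at an unadjusted p under 0.05. The part of these markers in the matrix gene results was not tested. Not all matrix genes were lower. Of 29 measured collagen genes, 5 were higher (17.2%) and 2 lower (6.9%), with a median difference of 0.212. COL13A1 differed by 1.23 ± 0.34 (SE) and COL18A1 by 0.84 ± 0.26 (SE), both with overlap between the groups. By overlap, 1 collagen gene lay above all controls and 1 below (3.45% each, against 3.84% and 4.14% of all genes). Laminins, proteoglycans and matrix glycoproteins had 6 higher and 7 lower genes of 70.

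Transporters and metabolic enzymes formed the next group. SLC19A3, a thiamine transporter, measured 4.97, 5.84, 5.54, 5.24 and 5.19 in MXD3 lines 1 to 5, against 6.55 and 6.49 with empty vector and 7.17 in parental DAOY. The difference was -1.38 ± 0.23 (SE), with detection on 1 of 5 MXD3 arrays and 3 of 3 controls. CA12, a membrane carbonic anhydrase, measured 9.01, 9.46, 9.07, 8.52 and 8.73 in MXD3 lines 1 to 5, against 10.05 and 10.17 with empty vector and 10.70 in parental DAOY. All MXD3 lines lay below all controls, and CA12 differed by -1.35 ± 0.23 (SE). PYGL, the liver form of glycogen phosphorylase, differed by -0.90 ± 0.15 (SE), and GLDC, the decarboxylase of the glycine cleavage system, by -1.34 ± 0.28 (SE).

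SCARB1, the receptor for high-density lipoprotein, measured 11.49, 10.55, 10.62, 10.40 and 10.72 in MXD3 lines 1 to 5, against 11.68 and 12.17 with empty vector and 12.15 in parental DAOY. MXD3 line 1 lay 0.19 below vector line 1 and well above the other MXD3 lines. SCARB1 differed by -1.24 ± 0.24 (SE). LPL, lipoprotein lipase, measured 8.21, 6.12, 7.32, 6.97 and 6.43 in MXD3 lines 1 to 5, against 8.32 and 8.22 with empty vector and 9.20 in parental DAOY. Line 1 nearly reached the vector lines, and the difference of -1.57 ± 0.44 (SE) was -1.26 against them alone. GPX3, a secreted glutathione peroxidase, measured 8.68, 5.61, 8.03, 6.38 and 8.65 in MXD3 lines 1 to 5, against 9.08 and 8.79 with empty vector and 8.94 in parental DAOY. Lines 2 and 4 lay far below the other lines and all controls. GPX3 differed by -1.46 ± 0.67 (SE) without overlap, at an unadjusted p of 0.0552, so it is not among the lower genes.

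Secreted proteins of other kinds were VGF, a neuropeptide precursor, which measured 9.11, 6.75, 8.60, 7.84 and 9.37 in MXD3 lines 1 to 5, against 9.58 and 10.15 with empty vector and 10.85 in parental DAOY. The spread among its MXD3 lines was wide, at 8.33 ± 1.06 (SD, n = 5) over the MXD3 lines and 10.19 ± 0.63 (SD, n = 3) over the 3 controls, and the difference was -1.86 ± 0.55 (SE). SBSN and DMKN, neighbouring genes for secreted epidermal proteins, differed by -1.38 ± 0.24 (SE) and -1.16 ± 0.22 (SE). Both were below all controls in 5 of 5 lines. MAL2, a membrane protein of transcytosis, measured 7.87, 6.69, 6.77, 6.50 and 6.71 in MXD3 lines 1 to 5, against 8.88 and 8.24 with empty vector and 8.40 in parental DAOY. Line 1 lay 1.10 above the next MXD3 line. MAL2 differed by -1.60 ± 0.30 (SE), and was the 1 gene that passed over all genes when MXD3 line 1 was left out (difference -1.84, adjusted p = 0.0428, limma).

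Signalling and regulatory genes closed the list. STK32A, a serine/threonine kinase, differed by -0.95 ± 0.15 (SE), MAPKAPK3, a kinase activated by p38, by -0.86 ± 0.17 (SE), and PRKAR1B, a regulatory subunit of protein kinase A, by -0.80 ± 0.17 (SE). HES7, a basic helix-loop-helix repressor known from somite segmentation, differed by -1.12 ± 0.21 (SE), and IRX6, a homeobox factor, by -0.82 ± 0.15 (SE). DNAJC12, a co-chaperone of aromatic amino acid hydroxylases, measured 9.89, 9.13, 8.19, 8.66 and 9.86 in MXD3 lines 1 to 5, against 10.09 and 11.22 with empty vector and 10.85 in parental DAOY. The difference was -1.57 ± 0.41 (SE), and its 2 other detected probes gave -1.20 and -1.71.

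Detection gave a further view of the dimmest genes. For 16 genes (0.132%) all arrays of one group were detected and none of the other, 6 in the MXD3 lines and 10 in the controls. LRRC75B, a leucine-rich repeat protein, measured 5.95, 6.92, 5.94, 6.02 and 6.79 in MXD3 lines 1 to 5, against 5.20 and 5.38 with empty vector and 5.23 in parental DAOY, which is a level at least 1.57-fold higher with MXD3 when the controls are set to the lowest detected signal of each array. The 5 others detected in the MXD3 lines alone were DYSF (dysferlin, a membrane repair protein, at least 1.48-fold), DYRK1B (a kinase, at least 1.33-fold), PABIR3, KLC3 and MS4A13. Those detected in the controls alone were GPR155 (at least 1.45-fold lower in the MXD3 lines), PPIP5K2, OGDHL, EPHA3, HS3ST6, BTBD8, CHDH, OR2T11, ALG1L1P and OR1N2. All 16 lay near the detection limit, with group means of 5.09 to 6.32. EPHA3, an ephrin receptor, had a second detected probe that gave -0.14.

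To describe the remaining genes, 58 classes were formed by the kind of protein, from gene symbols. They hold 4617 of the 12162 genes. Since a class rests on how a symbol begins, it also takes in partners, regulators and some unrelated genes, such as SLC4A1AP and SLC7A6OS with the solute carriers, TEKT1, TEKT3 and FLT3LG with the receptor tyrosine kinases and TBXAS1 with the T-box factors. Of genes in a class 11.8% had an unadjusted p under 0.05, and of genes in no class 11.7%. The classes differed in which direction they leaned, and the values below are descriptions beside the shares of all genes, 6.13% higher and 5.57% lower, with a median difference of 0.004.

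**Figure D2:**
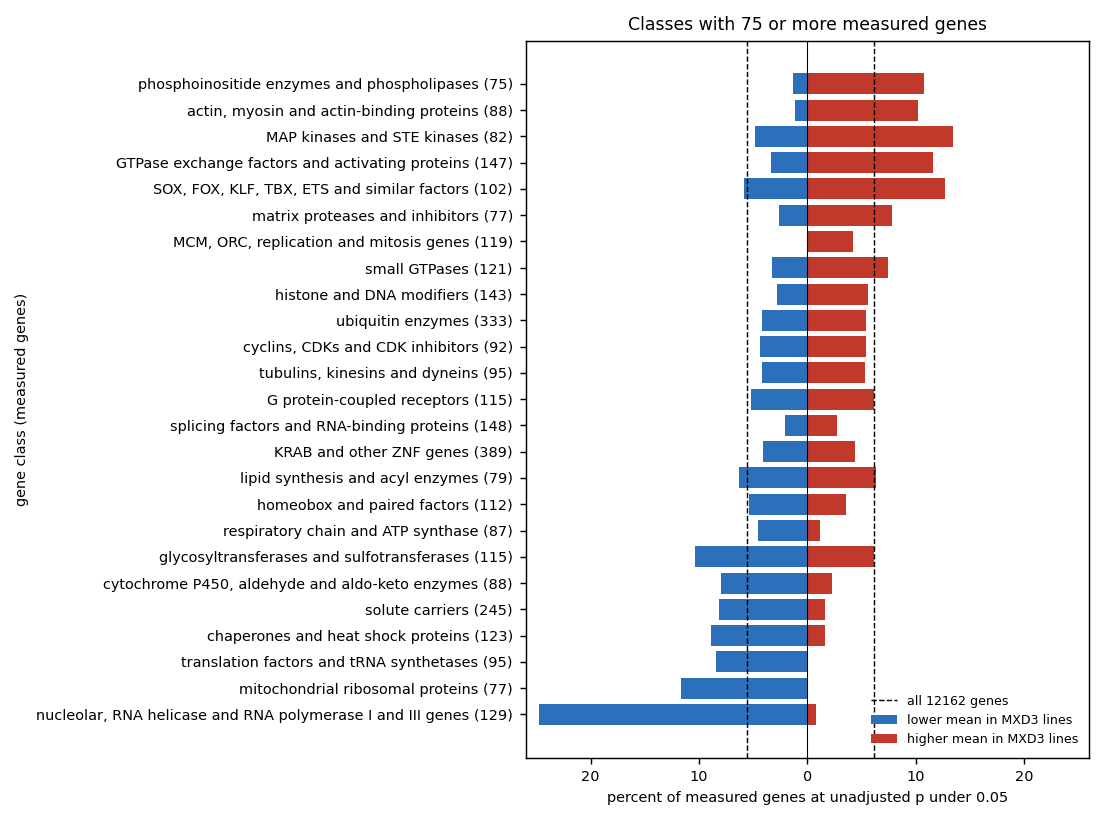
Percent of the measured genes of a class at an unadjusted p under 0.05 (x axis), for classes of 75 or more measured genes (number in brackets). Blue bars to the left are genes with lower means in the MXD3 lines, red bars to the right genes with higher means, and dashed lines mark the shares over all 12162 genes. The bar of nucleolar, RNA helicase and RNA polymerase I and III genes reaches 24.8% on the lower side and 0.775% on the higher side.

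Of the 58 classes, the highest share of lower genes was that of nucleolar proteins, RNA helicases and subunits of RNA polymerases I and III. Of 129 measured genes, 32 were lower (24.8%) and 1 higher (0.775%), 33 lay below all controls, and the median difference was -0.214. NOL6, a factor of the small ribosomal subunit precursor, measured 12.67, 11.79, 12.14, 11.62 and 11.59 in MXD3 lines 1 to 5, against 12.69 and 12.94 with empty vector and 12.82 in parental DAOY. Line 1 lay within 0.02 of vector line 1, and NOL6 differed by -0.86 ± 0.24 (SE), with -0.53 for its second probe.

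RRP15, a factor of ribosomal RNA processing, measured 11.35, 10.89, 11.25, 10.88 and 10.22 in MXD3 lines 1 to 5, against 11.68 and 11.83 with empty vector and 12.02 in parental DAOY. The groups did not overlap, and the difference was -0.93 ± 0.24 (SE). RRP12 differed by -0.73 ± 0.21 (SE), UTP4 by -0.60 ± 0.15 (SE) and NIP7 by -0.52 ± 0.13 (SE), all factors of ribosome assembly. The RNA polymerase III subunit genes POLR3B and POLR3E were in the lower set, at -0.37 ± 0.14 (SE) and -0.35 ± 0.15 (SE). The 1 higher gene, NOL4, differed by 0.43 ± 0.18 (SE). Against the vector lines alone 21 genes of the class were lower, and 20 without vector line 2.

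Genes of protein synthesis leaned the same way with smaller differences. Of 77 mitochondrial ribosomal protein genes, 9 were lower and 0 higher, 13 lay below all controls, and the median was -0.171. Without vector line 2 the count of lower genes was 4, and that over all 12162 genes was 506 (678 with all arrays). MRPL47 differed by -0.55 ± 0.15 (SE), MRPS21 by -0.46 ± 0.13 (SE) and MRPL45 by -0.53 ± 0.16 (SE). Of 65 cytosolic ribosomal protein genes 9 were lower and 0 higher, with a median of -0.127, and of 95 translation factor and tRNA synthetase genes 8 were lower and 0 higher, with a median of -0.085. RPL29 differed by -0.77 ± 0.21 (SE). Many ribosomal protein genes have processed pseudogenes with near-identical sequence, so their probes may read more than 1 locus. EEF2KMT, which methylates elongation factor 2, had the smallest p of these genes and differed by -0.80 ± 0.14 (SE), while EEF2 itself differed by -0.45 ± 0.13 (SE).

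Chaperones had 11 lower and 2 higher genes of 123 (8.94% lower), with a median of -0.019. By overlap, 6 lay below all controls (4.88%, against 4.14% of all genes) and 4 above (3.25%, against 3.84%). HSPA4, HSPA9 and HSPE1 differed by -0.56 ± 0.15 (SE), -0.39 ± 0.15 (SE) and -0.36 ± 0.13 (SE). HSPA9 and HSPE1 act in mitochondria. Proteasome subunits had 0 lower and 1 higher gene of 41, and splicing factors and RNA-binding proteins 3 lower and 4 higher of 148. At an unadjusted p under 0.05 the shares of both classes were below those of all genes in both directions. By overlap, 5 of the 41 proteasome genes lay above all controls (12.2%, against 3.84% of all genes).

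Solute carriers had 20 lower and 4 higher genes of 245 (8.16% lower). Without vector line 2, 12 of them and 506 of all 12162 genes were lower (678 with all arrays). By overlap, 9 of the 245 lay below all controls (3.67%, against 4.14% of all genes). Besides SLC19A3, SLC27A2, a fatty acid transporter, differed by -0.95 ± 0.24 (SE), SLC25A13, a mitochondrial aspartate and glutamate carrier, by -0.55 ± 0.17 (SE), SLC7A8, an amino acid transporter, by -0.55 ± 0.19 (SE), and SLC25A33, a mitochondrial pyrimidine nucleotide carrier, by -0.59 ± 0.15 (SE). SLC23A2, a vitamin C transporter, was among the 4 higher genes at 0.54 ± 0.15 (SE). Glycosyltransferases and sulphotransferases had 12 lower and 7 higher genes of 115. GALNT18 differed by -1.19 ± 0.38 (SE) and ST3GAL5, which makes the ganglioside GM3, by 0.82 ± 0.27 (SE).

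On the higher side, exchange factors and activating proteins of small GTPases had 17 higher and 5 lower genes of 147 (11.6% higher), with a median of 0.064. DENND2A, an exchange factor of RAB proteins, measured 9.92, 11.26, 10.87, 11.51 and 10.80 in MXD3 lines 1 to 5, against 10.35 and 8.59 with empty vector and 8.55 in parental DAOY. MXD3 line 1 lay below vector line 1, so the groups overlapped, and DENND2A differed by 1.71 ± 0.46 (SE). ARHGEF17 measured 7.89, 7.91, 7.94, 7.81 and 7.88 in MXD3 lines 1 to 5, against 7.66 and 6.95 with empty vector and 6.91 in parental DAOY. Its MXD3 lines lay within 0.13 of each other and above all controls, and it differed by 0.71 ± 0.18 (SE). DOCK1 and DOCK9, activators of RAC and CDC42, differed by 0.60 ± 0.18 (SE) and 0.81 ± 0.25 (SE). RGS16, which ends G protein signalling, was a lower gene at -1.09 ± 0.25 (SE). Against the vector lines alone the class had 9 higher genes.

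MAP kinase and STE kinase genes had 11 higher and 4 lower of 82 (13.4% higher), with a median of 0.121. MAP2K4 differed by 0.43 ± 0.17 (SE), MAP4K4 by 0.54 ± 0.21 (SE) and MAP3K3 by 0.36 ± 0.14 (SE), and MAPK11, a p38 kinase, by -0.42 ± 0.16 (SE). Actin, myosin and actin-binding genes had 9 higher and 1 lower of 88, with a median of 0.126, and 2 higher against the vector lines alone. NEXN differed by 0.66 ± 0.20 (SE), MYO1C by 0.72 ± 0.23 (SE) and MYL6 by 0.38 ± 0.13 (SE).

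Transcription factors of the SOX, FOX, KLF, TBX and ETS families had 13 higher and 6 lower genes of 102 (12.7% higher). By overlap, 4 lay above all controls and 4 below (3.92% each, against 3.84% and 4.14% of all genes). TBX2, a T-box repressor, measured 6.78, 7.79, 7.34, 7.10 and 7.32 in MXD3 lines 1 to 5, against 6.39 and 6.04 with empty vector and 6.51 in parental DAOY. All MXD3 lines lay above all controls, and TBX2 differed by 0.95 ± 0.22 (SE). KLF13 differed by 0.59 ± 0.16 (SE), KLF12 by 0.75 ± 0.18 (SE) and SOX4 by 0.45 ± 0.16 (SE), while the second probe of KLF12 gave 0.12. FOXA3 was a lower gene at -1.65 ± 0.44 (SE), with MXD3 line 1 slightly above vector line 1, and EOMES differed by -0.70 ± 0.23 (SE). ZNF genes, the largest class, stood near the background in both directions, with 17 higher and 16 lower of 389. ZNF296 had the smallest p among them, at -0.89 ± 0.19 (SE). Basic helix-loop-helix factors had 6 higher and 4 lower genes of 68. MYC was a higher gene, at 0.55 ± 0.15 (SE), with 0.48 against the vector lines alone. MNT, of the same class, differed by 0.51 ± 0.14 (SE), and neither gene showed overlap between the groups. MYC was read by 1 probe and its protein was not measured. Its part in the lower E-box and ribosome assembly genes was not tested.

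Cytokine and chemokine genes had 11 higher and 3 lower of 48 (22.9% higher), with a median of 0.155. Vector line 2 was low for this class, at a median deviation of -0.321 from the mean of the 8 arrays, against 0.059 in vector line 1 and -0.114 in parental DAOY. In MXD3 lines 1 to 5 the deviations were -0.085, 0.091, 0.122, 0.169 and 0.167, so line 1 lay below vector line 1. Genes of DNA replication and mitosis had 5 higher and 0 lower of 119, with a median of 0.006. Their median absolute difference of 0.111 was smaller than the 0.171 of all genes.

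The E-box was counted in the promoters of the lower and higher genes, from 250 bases before to 50 after the first listed start of a gene. CACGTG reads the same on both strands. Genes of chromosome 8 were not analysed here for this count. Of the other 11722 genes tested, 10057 had a matched promoter (85.8%), as did 537 of 651 lower genes (82.5%) and 596 of 716 higher genes (83.2%). The motif was held by 109 of the 537 lower genes (20.3%), 50 of the 596 higher genes (8.39%) and 1012 of all 10057 tested genes (10.1%). Of all 27305 promoters in the RefSeq set, 7.43% held it. When any listed start of a gene was counted, the shares were 24% of lower, 9.73% of higher and 12.5% of all tested genes.

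Read the other way, 109 of the 1012 genes with the E-box were lower (10.8%) and 50 higher (4.94%). Of the 9045 genes without it, 428 were lower (4.73%) and 546 higher (6.04%). The median difference was -0.041 with the E-box and 0.007 without it. Among genes without overlap the motif was held by 88 of 413 that lay below the controls (21.3%) and 33 of 385 that lay above (8.57%). A motif match is a description of sequence and says nothing of binding.

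The E-box share also differed by class. Of the 27 lower nucleolar, helicase and polymerase genes with a promoter, 16 held the E-box (59.3%), against 33 of 117 in the whole class (28.2%). Outside that class and the protein synthesis classes, 90 of 490 lower genes held it (18.4%), against 953 of 9740 tested genes (9.78%). That remainder still holds some genes of ribosome assembly, such as MDN1. DPH2, an enzyme that makes the diphthamide residue of elongation factor 2, measured 12.72, 12.16, 12.54, 12.29 and 12.40 in MXD3 lines 1 to 5, against 12.94 and 13.28 with empty vector and 13.12 in parental DAOY. All MXD3 lines lay below all controls, and DPH2 differed by -0.69 ± 0.16 (SE), with -0.76 for its second probe. TMA16, a protein found with ribosomes in yeast, differed by -0.69 ± 0.17 (SE), and MDN1, a large ATPase of ribosome assembly, by -0.65 ± 0.15 (SE). The cone transducin gene GNAT2 differed by -1.08 ± 0.17 (SE) and PNMA3 by -0.78 ± 0.16 (SE).

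For other E-box forms the shares of lower and higher genes were closer to each other or ran the other way. CACGCG, searched on both strands, was in 21.8% of lower, 15.6% of higher and 17.6% of all promoters. CACATG, also searched on both strands, was in 8.38%, 6.54% and 6.88% of the same sets. CAGCTG, the form bound by many tissue-specific factors, was in 16.9% of lower and 22.3% of higher genes, against 16.8% of all. The median GC content was 64.7% for lower, 67.7% for higher and 64.7% for all promoters. The 4 motifs differ in their letters, and a promoter can hold more than 1 of them.

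The share held in each range of expression. In the quartiles of mean intensity, lowest to highest, the E-box was in 17.2%, 18.7%, 26.7% and 19.8% of lower genes and in 8.31%, 10.1%, 10.3% and 11.6% of all genes. Positions also differed. Of the 118 E-boxes in lower genes 39 started in the first 50 bases after the gene start (33.1%), against 124 of 1145 in all tested genes (10.8%). The sites of NOL6, PES1, MRTO4 and NOP14 printed above lie there.

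**Figure D3:**
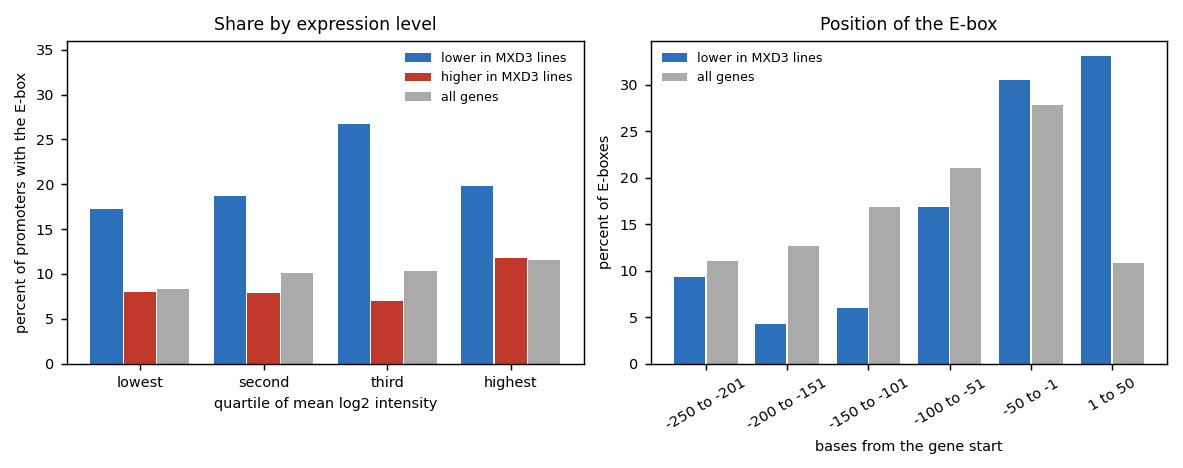
Left, percent of promoters that hold CACGTG (y axis) in the 4 quartiles of mean log2 intensity (x axis), for lower genes (blue), higher genes (red) and all genes (grey). Right, percent of all E-boxes of a set (y axis) by bases from the gene start (x axis). Blue bars exceed grey bars in each quartile, and in the last position bin they reach 33.1% against 10.8%.

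By array, the differences of these gene groups were small. The median deviation of the 1012 E-box genes from the mean of the 8 arrays was 0.018, -0.022, 0.014, -0.005 and -0.072 in MXD3 lines 1 to 5, against 0.028 and 0.068 with empty vector and 0.036 in parental DAOY. For the 129 nucleolar, helicase and polymerase genes it was 0.012, -0.121, 0.013, -0.119 and -0.179 in MXD3 lines 1 to 5, against 0.043 and 0.222 with empty vector and 0.151 in parental DAOY. All 5 MXD3 lines lay below all 3 controls in both groups. Lines 1 and 3 were nearest to vector line 1, and line 5, with the lowest MXD3 reading, was the lowest in both.

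**Figure D4:**
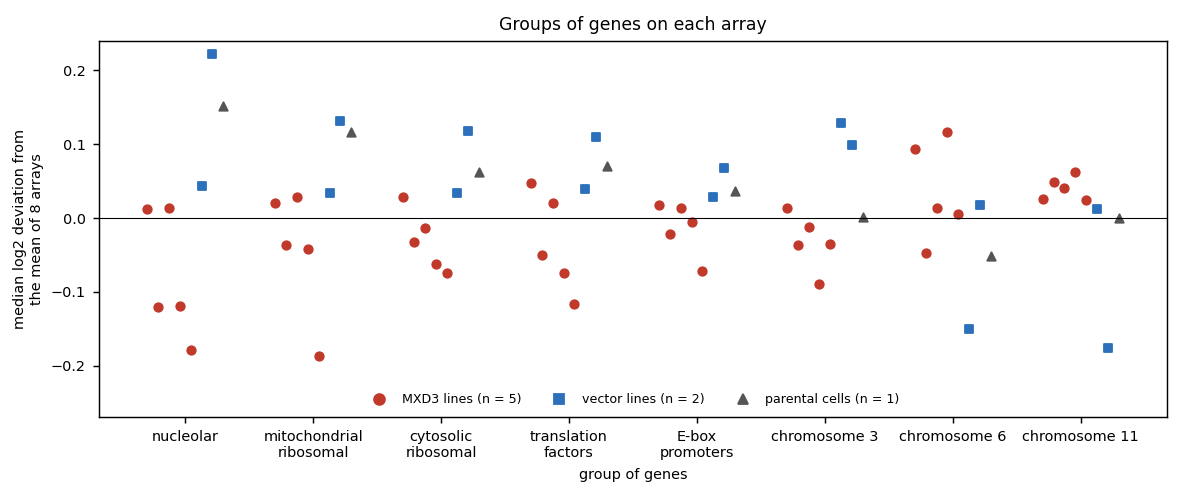
Median over the genes of a group of the log2 deviation from the mean of the 8 arrays (y axis), for 8 groups of genes (x axis). Red circles are MXD3 lines 1 to 5, blue squares vector lines 1 and 2 and grey triangles the parental cells, each in this order from left to right. In the nucleolar, both ribosomal and the E-box groups all red circles lie below all control marks, with a gap that is small beside the spread among the red circles. Among translation factors MXD3 line 1 lies above vector line 1.

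Higher and lower genes were spread unevenly over the chromosomes. Chromosome 3 had 73 lower and 11 higher genes of 695 (10.5% lower and 1.58% higher). Chromosome 6 had 78 higher and 27 lower of 682 (11.4% higher), and chromosome 11 had 81 higher and 17 lower of 731 (11.1% higher). These shares fell when the arrays named below were left out, and so did the counts over all genes. Vector line 2 had a median deviation of -0.176 over the genes of chromosome 11, against 0.026, 0.049, 0.041, 0.062 and 0.025 in MXD3 lines 1 to 5, 0.012 in vector line 1 and 0 in parental DAOY. With vector line 2 left out, the share of higher genes on chromosome 11 was 4.92%. Of all 12162 genes, 9.12% then differed in either direction at an unadjusted p under 0.05 (11.7% with all arrays).

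On chromosome 6 vector line 1 stood at -0.15, and without the parental array the share was 6.16%. Of all 12162 genes, 7.75% then differed in either direction (11.7% with all arrays). On chromosome 3 vector lines 1 and 2 stood at 0.128 and 0.099 and the parental cells at 0.001, against 0.014, -0.037, -0.012, -0.089 and -0.035 in the MXD3 lines. The share of lower genes there was 6.91% without vector line 2, when 506 of all 12162 genes were lower (678 with all arrays). The reduced shares on chromosomes 3 and 6 still exceeded those of all genes in the same setting, while that on chromosome 11 did not. Copy number was not measured, and its part in these shares was not tested. The longest run of neighbouring tested genes in one set was 4 higher genes on chromosome 11, NUMA1, LRTOMT, ANAPC15 and INPPL1, with a median difference of 0.50.

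**Figure D5:**
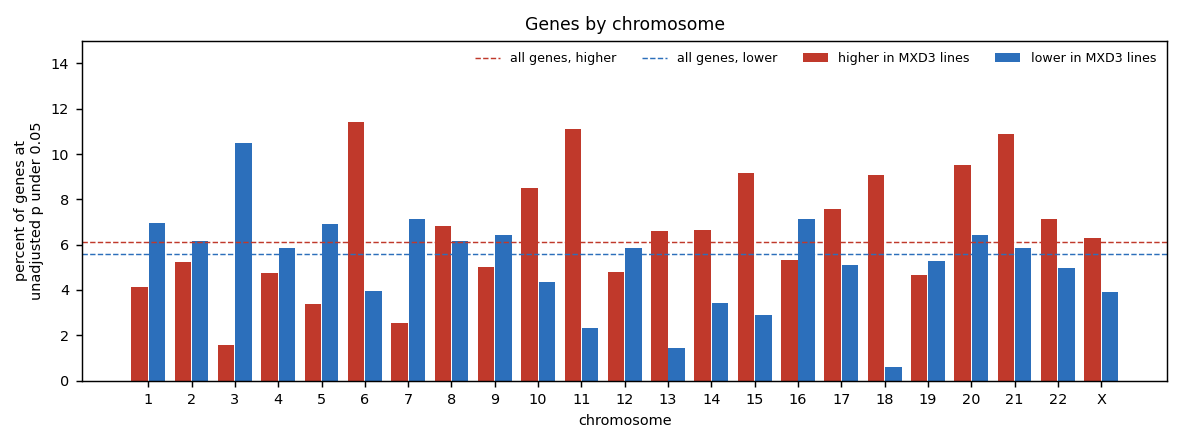
Percent of the tested genes of each chromosome (x axis) at an unadjusted p under 0.05 (y axis), with higher means (red) or lower means (blue) in the MXD3 lines, and dashed lines for all genes. Chromosomes 6 and 11 reach 11.4% and 11.1% on the higher side and chromosome 3 reaches 10.5% on the lower side.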

How the data were processed

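RNA of 8 DAOY samples (5 MXD3 lines, 2 vector lines, 1 parental culture) was labelled as biotinylated cRNA and read on Illumina bead arrays, per the labels' protocols. The authors deposited an intensity for 22184 probes per array, not normalized and without background subtraction, with BeadStudio named in the submitters' processing notes. Beside each intensity they deposited a detection p-value. The series matrix, also deposited, holds the same intensities after subtraction of a constant and scaling of each array. It was used as an alternative.

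The neqc function of limma corrected the background with negative controls inferred from the deposited detection p-values, added an offset of 16, normalized by quantiles and took log2 values. Probes detected at p under 0.05 on at least 2 arrays were kept, and the brightest probe stood for its gene. Of the probes, 19715 named 1 gene and 2469 none, from the platform annotation updated through the RefSeq gene table (GRCh38.p14). The 12162 genes were tested with lmFit and eBayes in limma (5 arrays against 3, two-sided, Benjamini-Hochberg). On simulated data with the same genes, 77 of 100 changes of 1 log2 unit and 99 of 100 of 2 units were recovered, with 6 false calls. The simulated noise was independent between genes, with no shared effect of a line or array, so these shares need not hold for the real arrays. The number of arrays limits the precision. MXD3 alone was tested with an exact permutation test. Sequence motifs were counted in RefSeq promoters of GRCh38.p14.

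The genes named are MXD3, the 25 per direction with the smallest p and the 10 with the largest difference among genes without overlap, those detected in 1 group only, up to 3 members of each class and the marker genes. Genes outside this rule were chosen after their values were seen: the ribosome assembly and polymerase genes MRTO4, NOL4, NOL6, NOP14, PES1, POLR3B, POLR3E, RRP12 and RRP15, the E-box genes DPH2, MDN1 and TMA16, DENND2A, DOCK1, DOCK9, EOMES, FOXA3, GALNT18, HSPA9, HSPE1, MAP2K4, MAP3K3, MAP4K4, MAPK11, SLC7A8, SLC23A2, SLC25A13, SOX4, ST3GAL5, RNA28SN5, the 4 neighbouring genes on chromosome 11, and EZH2, HLA-DMB, LPAR1, PTGER2, TAP1 and TAP2 in the closing section. The members, lists and gene classes were chosen with earlier results of these data known, and the symbol patterns of the classes were corrected after their matches were viewed. Alternatives were quantile normalization without background correction, the series matrix, other probe filters, every probe, array weights, the vector lines alone, a replicate block and leaving out each array. No pairing by replicate number was seen: deviations of same-numbered MXD3 and vector lines from their group means correlated at -0.309 and -0.179. With 2 vector lines these values are not independent, and they cannot exclude a shared batch.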

Additional observations from a re-analysis of the deposited data

Results flagged for a closer look

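Outlying samples were sought among the 5 MXD3 lines, by the gap to the next sample over the group's whole range, for 78 of the named genes. Chance flags about 1 in 20 groups, and 5 genes stood out. The log2 intensity of DYSF was 6.96 in MXD3 line 2, above the other 4 lines, of which the next was 6.20. MS4A13 was 5.71 in MXD3 line 1, below the other lines, the next at 6.00. MAL2 was 7.87 in MXD3 line 1, with the next line at 6.77. MAPKAPK3 was 11.07 in MXD3 line 1, with the next at 10.60, and PCDH7 was 5.92 in MXD3 line 3, with the next at 5.06. For MAL2, MAPKAPK3 and PCDH7 the outlying line was the one nearest to the controls.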

How the results depend on the processing

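The count of genes past an adjusted p of 0.05 was 0 under 8 alternatives (quantile normalization without background correction, the authors' series matrix values, no filter on dim probes, probes detected on all arrays, every probe as a feature, the vector lines alone, array weights and the replicate block) and ranged from 0 to 1 when 1 array was left out, the 1 gene being MAL2 without MXD3 line 1. Genes at an unadjusted p under 0.05 numbered 1424, against 942 with the vector lines alone and 291 with the replicate block. The block fit has 1 residual degree of freedom, and its numbers were not shown to pair the samples. Leaving out 1 array gave 942 to 1738. Genes without overlap numbered 970, against 1607 with the vector lines alone and 1165 to 2396 with 1 array left out, the highest without vector line 1. Fewer arrays must pass in these counts, which raises them by construction. Genes detected in 1 group only numbered 16, also 16 at a detection p under 0.01, and 24 to 63 with 1 array left out, for the same reason. The share of lower genes with the E-box stayed between 17.5% and 21.5% with 1 array left out, and that of higher genes between 6.78% and 9.83%. With the replicate block the shares were 14% and 6.93%. The counts of lower nucleolar, helicase and polymerase genes and of lower mitochondrial ribosomal protein genes were then 0 and 0, and 168 of all genes were lower. The cause of these changes was not tested. Over single genes and gene groups, 1253 alternative values kept direction and call, 21 moved and 1 became stronger. All 21 that moved were values of gene groups, among them the nucleolar, actin and GTPase exchange factor counts. No single gene was called with all arrays, so for single genes a kept call means that the gene stayed uncalled. The pooled count therefore says little about how stable the group results were. No value reversed. Of the single arrays left out, the parental one moved the count at an unadjusted p under 0.05 most.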

Other observations

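Of all 12162 genes, 6.13% were higher and 5.57% lower at an unadjusted p under 0.05, and further classes are given here beside these shares. Among 47 potassium channel genes 4 were higher (8.51%) and 1 lower (2.13%). KCNJ8, a pore subunit of ATP-sensitive potassium channels, differed by -1.38 and lay below all controls in 5 of 5 MXD3 lines. KCNN3, a calcium-activated channel, differed by 0.69 and lay above all controls, while its second detected probe gave 0.22. Of 115 G protein-coupled receptor genes 7 were higher (6.09%) and 6 lower (5.22%). LPAR1, a receptor for lysophosphatidic acid, differed by 1.00 without overlap, and PTGER2, a prostaglandin E2 receptor, by -1.39 with overlap. The class of receptor tyrosine kinase symbols had 5 higher (11.9%) and 2 lower (4.76%) genes of 42, among them MERTK at 0.47 without overlap. NTRK2 was detected on 2 of 5 MXD3 arrays and 0 of 3 controls.

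The class of interferon response and antigen presentation had 6 higher (9.52%) and 5 lower (7.94%) genes of 63, with a median difference of 0.08. TAPBP, which loads peptides onto class I molecules, differed by 0.83 and by 0.53 without the parental array, but its 2 other detected probes gave -0.07 and 0.15. The peptide transporter genes TAP1 and TAP2 differed by 0.36 and 0.42, both above all controls. HLA-DMB, of the class II pathway, differed by -1.11 and lay below all controls. HLA-DQB1, of the same pathway, was detected on 0 of 5 MXD3 arrays and 2 of 3 controls and was at least 1.27-fold lower in the MXD3 lines. Among the 143 histone and DNA modifier genes 8 were higher (5.59%) and 4 lower (2.8%), both shares below those of all genes. The histone demethylase genes KDM1B and KDM5C differed by 0.88 and 0.63, both without overlap, and EZH2, the methyltransferase of Polycomb, by -0.37. No gene named in this section passed limma's test over all genes.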
